A study of Mus musculus with 2 samples.

Results

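A set of 5 mature miRNA species linked to the vessel wall and to platelets was followed in extracellular vesicles (EVs) of mouse plasma. The set held mmu-miR-126a-5p, mmu-miR-126a-3p, mmu-miR-191-5p, mmu-miR-223-3p and mmu-miR-21a-5p, taken by name from a count table of 1982 species, of which 117 had a count in either library. All 5 were counted in EVs of sedentary mice (sEVs), and only mmu-miR-126a-5p and mmu-miR-191-5p were counted in EVs of exercised mice (eEVs). The donors of both groups were wild type C57BL/6 mice, 8 weeks old and fed normal chow, and neither group carried a transgene. Exercised mice ran a single bout of 60 min to exhaustion, with the treadmill set between 10 and 24 m/min, after being accustomed to the treadmill on earlier days, whereas sedentary mice did not run. Plasma from 20 mice in each group, about 10 ml, was pooled, and a single small RNA library was made from each pool and read over 50 nt. Blood was spun a second time before freezing to limit vesicles shed from platelets in the tube, and the study describes its experiments as made in male mice without naming the sex of the EV donors.

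A miRNA is cut from a hairpin precursor whose 5p and 3p arms can each give a mature strand, and the strand that is kept in an Argonaute protein silences mRNAs that pair with its seed. miR-126 sits in an intron of Egfl7 and is a well known miRNA of endothelial cells, where its 3p strand sustains VEGF signalling by repressing Spred1 and Pik3r2. Platelets carry it too. miR-223 is a miRNA of granulocytes and monocytes that is also abundant in platelets, miR-21 is expressed in most tissues and represses Pdcd4, and miR-191 is found in most blood cells and often serves as a reference in measurements of circulating miRNAs. None of the 5 is therefore specific to the endothelium or to platelets, and their cell of origin cannot be told from counts in plasma EVs.

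The mature sequences were taken from RefSeq on GRCm38.p6, where 4 of the 5 species were matched. They are shown so that the seeds, bases 2 to 8 in capitals, can be compared.
mmu-miR-126a-3p: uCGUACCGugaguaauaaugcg
mmu-miR-191-5p: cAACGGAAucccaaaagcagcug
mmu-miR-223-3p: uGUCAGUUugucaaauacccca
mmu-miR-21a-5p: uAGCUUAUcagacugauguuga
No seed was shared among these 4 species. mmu-miR-21c, with 0 counts in both libraries, was the only other mature miRNA in the RefSeq table with the seed of mmu-miR-21a-5p, and it shares a run of 15 bases with it. The longest run that another mature miRNA shares was 10 bases for mmu-miR-126a-3p (with mmu-miR-126b-3p), 9 for mmu-miR-223-3p and 8 for mmu-miR-191-5p, and none of the species that share these runs had a count.

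The hairpin Mir126a, whose arms are compared between the libraries, lies on the plus strand at chr2:26591357-26591429 of GRCm38, in introns of the coding Egfl7 transcripts and in an exon of a transcript with a retained intron. Mir126b is annotated opposite to it, and both arms of mmu-miR-126b had 0 counts, although the strand setting of the counting was not given in the sources used here. Mir191 lies at chr9:108568319-108568392 within an exon of 4833445I07Rik, a noncoding RNA, 385 bases from Mir425, whose arms also had 0 counts in both libraries. Mir223, at chrX:96242817-96242926, lies in an exon of the noncoding RNA F630028O10Rik. Mir21a, at chr11:86584067-86584158 on the minus strand, lies in an exon of Vmp1, in the part annotated as untranslated. The count table holds no coordinates and its genome build was not given in the sources used here, so these are positions of the named hairpins in RefSeq and GENCODE M21.

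In total 2851 reads were counted on miRNAs from sEVs and 820 from eEVs, a ratio of 3.48. Shares are percentages of these totals with 95% Wilson intervals. A count of 0 is treated as up to 3 counts, a share of 0.105% in sEVs and 0.366% in eEVs. The Wilson interval of 0 counts reaches further, to 0.135% in sEVs and 0.466% in eEVs. Fold changes are shares in eEVs over shares in sEVs, with exact 95% intervals given the sum of both counts. For each species, counts of that species and of all others were set against each other in the 2 libraries by Fisher's exact test (two-sided), with Benjamini-Hochberg adjustment over all 117 species. There were no replicates, so this test compares 2 libraries of reads and not exercised with sedentary mice. Without molecular identifiers, reads are not independent molecules, so that every interval, limit and p-value given here covers counting error alone. Fewer vesicles of a given origin, less of a miRNA in each vesicle and a rise of other species in the library total cannot be told apart. The study found ApoB in its EV-rich fractions and names lipoprotein as a common contaminant, and miRNA carried outside vesicles was not tested.

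The 5 species together made up 51 counts in sEVs, or 1.79% of the library (95% interval 1.36% to 2.34%), and 16 counts in eEVs, or 1.95% (1.20% to 3.15%). The fold change of this sum was 1.09, with an interval from 0.581 to 1.94. With each species left out in turn it ranged from 0.564 (0.194 to 1.35) without mmu-miR-191-5p to 1.5 (0.781 to 2.77) without mmu-miR-126a-3p. It was below 1 without either species counted in eEVs, at 0.828 (0.370 to 1.68) without mmu-miR-126a-5p, and each of the 5 intervals included 1. In sEVs mmu-miR-126a-3p and mmu-miR-191-5p each held 27.5% of the sum (exact interval 15.9% to 41.7%). In eEVs mmu-miR-191-5p held 62.5% (35.4% to 84.8%) and mmu-miR-126a-5p the other 37.5% (15.2% to 64.6%), and the intervals of each overlap between the libraries. The share was higher in eEVs for 2 of the 5 and lower for 3, against 46 higher and 71 lower among all 117 species (39.3% higher). Among the 28 species with 5 to 14 counts in sEVs, the span of these 5, the share was higher in eEVs for 17.9%. These 28 include the 5 species themselves and both arms of some hairpins with identical counts, such as miR-101b. The median difference in share, eEVs minus sEVs, was -0.175 percentage points for the 5 species and -0.0351 for all detected species.

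**Figure D1:**
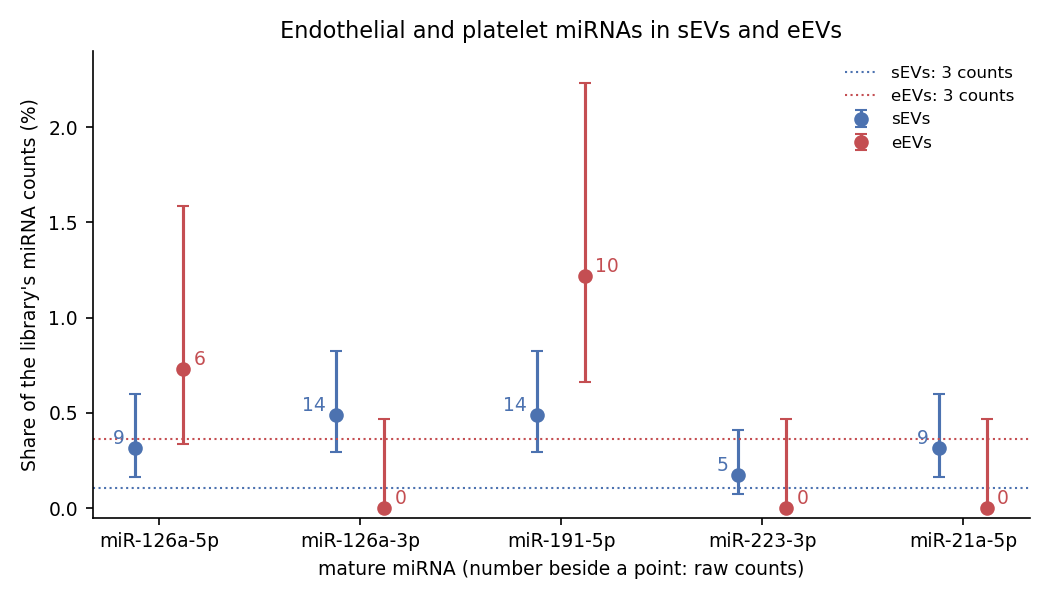
Share of each library's miRNA counts (%, y axis) for the 5 mature miRNAs (x axis) in sEVs (blue) and eEVs (red). Points are shares, bars are 95% Wilson intervals, numbers are raw counts, and dotted lines mark 3 counts in each library. mmu-miR-126a-5p and mmu-miR-191-5p have 6 and 10 counts in eEVs, and the other species have 0.

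The 5p arm of miR-126a, long regarded as its passenger strand, had 9 counts in the sEV and 6 in the eEV library. These are 0.316% (0.166% to 0.599%) and 0.732% (0.336% to 1.59%) of the libraries, and the intervals overlap. Equal shares would have put 3.35 of the 15 counts in the eEV library. The fold change was 2.32 with an interval from 0.679 to 7.29, and Fisher's exact test gave an adjusted p of 0.307.

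The 3p arm, the strand that represses Spred1, had 14 counts in sEVs, 0.491% of the library (0.293% to 0.823%), and 0 of 820 in eEVs. The sEV share lies above the 0.366% that 3 counts make in eEVs, and its interval overlaps the Wilson interval of 0 counts there, which reaches 0.466%. The exact interval of the fold change reached up to 1.05 and so included no change. Fisher's exact test gave p = 0.0498 before adjustment and 0.15 after it. Equal shares would have put 3.13 counts in the eEV library.

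mmu-miR-191-5p, the species of the set with the most counts in both libraries together, gave 14 counts from sEVs and 10 from eEVs. Its share was 0.491% in sEVs (0.293% to 0.823%) and 1.22% in eEVs (0.664% to 2.23%). It ranked 18 in sEVs by count, level with mmu-miR-126a-3p and another species, and 9 in eEVs, level with 2 others. The fold change was 2.48 with an interval from 0.987 to 6.01, and the adjusted p of Fisher's exact test was 0.15. With library totals replaced by totals scaled to the size factors of DESeq2 (2.24 in sEVs and 0.447 in eEVs), Fisher's exact test gave an adjusted p of 0.0216. The log2 fold change was then 1.84 in place of 1.31. These factors raise every log2 fold change by 0.52, and with them 27 of the 117 species were called (23.1%), 25 of them higher in eEVs against 22 without them.

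mmu-miR-21a-5p had 9 counts in sEVs, 0.316% of the library (0.166% to 0.599%), and 0 in eEVs, and its other arm, mmu-miR-21a-3p, followed with 7 and 0. The sEV share of each arm lies below the 0.366% that 3 counts make in eEVs. Each arm also had fewer than the 14 sEV counts needed against 0 for an unadjusted p below 0.05 in Fisher's exact test. A fall of either arm alone was therefore not detectable at this depth. The exact interval of the fold change reached up to 1.76 for the 5p arm, with an adjusted p of 0.422 in Fisher's exact test, and up to 2.41 for the 3p arm (adjusted p = 0.620). Both arms of miR-21a together had 16 counts, all of them from sEVs, and the unadjusted interval of the fold change of this sum reached up to 0.902. A single species with these counts, mmu-miR-122-5p, had an adjusted p of 0.121 in Fisher's exact test and was not called.

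mmu-miR-223-3p, the arm of miR-223 that acts in myeloid cells on Mef2c and Nlrp3, was the species of the set with the fewest counts. It had 5 in sEVs, or 0.175% (0.0749% to 0.410%), and 0 in eEVs, where equal shares would have given 1.12. The fold change could lie anywhere up to 3.79, and the adjusted p was 0.827 in Fisher's exact test. No count fell on mmu-miR-223-5p or mmu-miR-191-3p in either library, nor on mmu-miR-21b, the other near copy of miR-21a.

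None of the 5 species passed an adjusted p of 0.05 in Fisher's exact test, and 2 of them, mmu-miR-191-5p and mmu-miR-126a-3p, had an unadjusted p below it. Among all 117 species the test called 23.1%, with 18.8% called higher and 4.27% called lower in eEVs, and 33.3% had an unadjusted p below 0.05. The difference in depth makes these calls uneven. A species with 0 counts in sEVs was called from 3 counts in eEVs, while the species called at 0 in eEVs had at least 32 counts in sEVs, and 14 were needed there for an unadjusted p below 0.05. By size alone, mmu-miR-126a-5p and mmu-miR-191-5p were at least 2-fold higher in eEVs, as were 16.4% of the 61 species with more than 3 counts in a library. At least 2-fold lower were 14.8% of those species, but with counts of 3 or fewer set at 3 this takes 21 counts in sEVs when there are none in eEVs, more than any of the 5 had. A count of 0 in eEVs was common, at 43.6% of the 117 species and 53.6% of the 28 species with 5 to 14 counts in sEVs, and both groups include the 5. A count of 0 in sEVs with a count in eEVs, seen for 29.9% of the 117, occurred in none of the 5. Having 3 of 5 at 0 is close to that background.

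**Figure D2:**
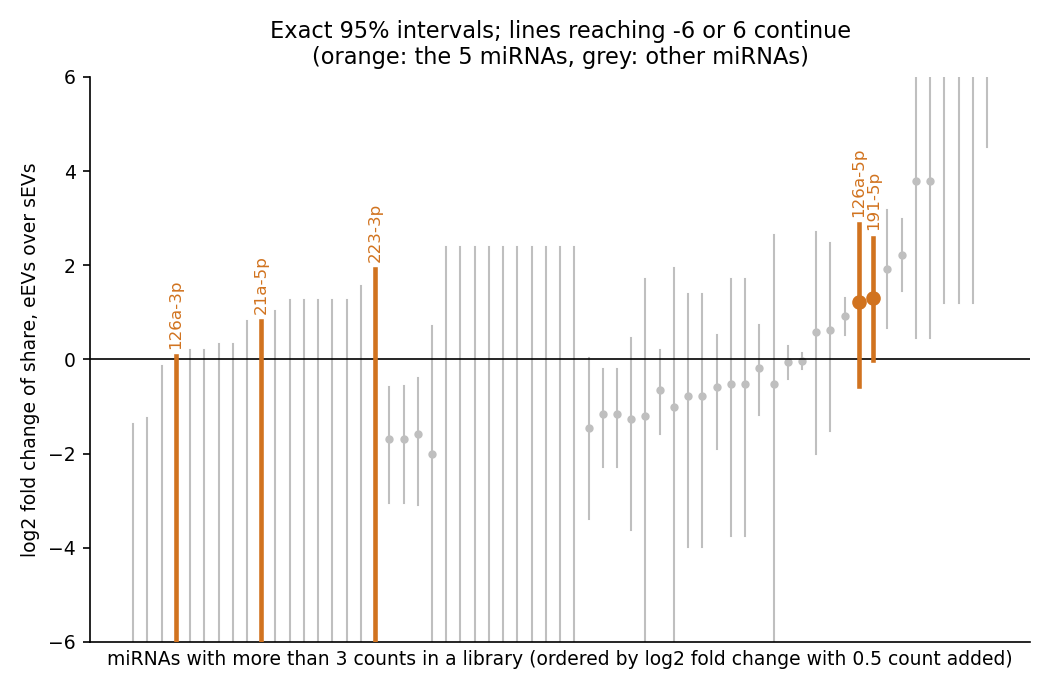
Log2 fold change of the share of counts, eEVs over sEVs (y axis), for the 61 miRNAs with more than 3 counts in a library, ordered by log2 fold change with 0.5 count added (x axis). Lines are exact 95% intervals and points are fold changes of species counted in both libraries, with the 5 miRNAs in orange and all others in grey. Lines that reach the edge of the plot continue. The interval of each orange species crosses 0, the line of no change.

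The reads of miR-126a were divided between its arms in both libraries as follows. In sEVs 9 of 23 counts fell on the 5p arm, or 39.1% (exact 95% interval 19.7% to 61.5%), and in eEVs all 6 did, or 100% (54.1% to 100%). The 3p arm had more counts than the 5p arm in sEVs and 0 in eEVs, a difference of 60.9 percentage points, although both intervals cover shares from 54.1% to 61.5%. The ratio of 5p to 3p counts was higher in eEVs by an odds ratio of at least 1.38, the lower end of its exact interval. Fisher's exact test on the 2 arms gave p = 0.0169. This contrast was chosen with these counts known, and it was run on all 16 hairpins with both arms listed and a count in each library. Adjusted over these hairpins the p was 0.270, and none of the 16 was called, a share of 0%. However, 9 of the 16 had identical arms, or an arm with no count in either library, and so offered no ratio to compare, and adjusted over the other 7, a choice made after seeing the data, the p was 0.118. At an unadjusted p below 0.05 the share was 6.25%, which is miR-126a alone.

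The ratio of arms does not depend on the library totals, whereas the sum of both arms does. Together the arms of miR-126a gave 23 counts from sEVs and 6 from eEVs, 0.807% (0.538% to 1.21%) and 0.732% (0.336% to 1.59%) of the libraries. The fold change of this sum was 0.907 with an interval from 0.302 to 2.29. miR-142a, a hairpin of white blood cells with both arms counted in each library, had 79 counts on 5p and 76 on 3p in sEVs against 7 and 14 in eEVs (unadjusted p = 0.164, adjusted p = 0.8 in Fisher's exact test). For miR-191 every count was on the 5p arm, with 14 in sEVs and 10 in eEVs, and for miR-21a the sEV library gave 9 on the 5p and 7 on the 3p arm. Of 58 hairpins with both arms listed and a count, 22 had identical counts on both arms in both libraries, and none of the members' hairpins was among them. How reads were assigned to arms was not given in the sources used here, and whether arm counts in this table stand for separate strands was not tested.

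**Figure D3:**
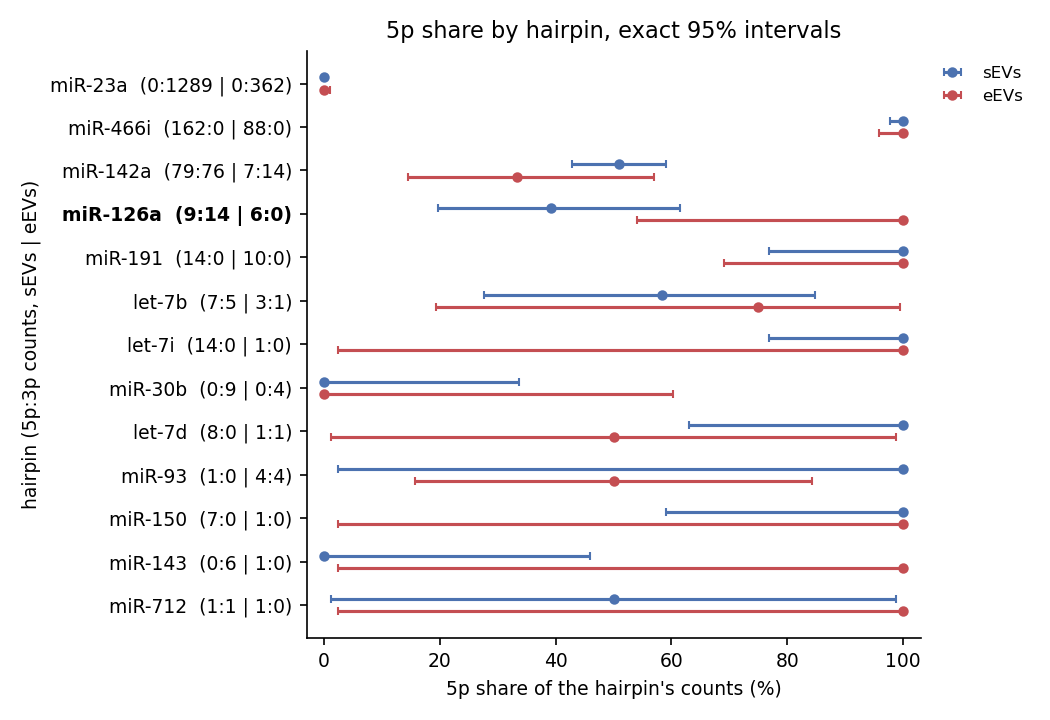
The 5p share of a hairpin's counts (%, x axis) in sEVs (blue) and eEVs (red) for the 13 hairpins (y axis) that were tested and whose arms differ in count, with 5p and 3p counts beside each name. Points are shares and bars are exact 95% intervals. miR-126a, in bold, moves from 39.1% in sEVs to 100% in eEVs, on 6 counts in eEVs.

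The order of the 5 species was mmu-miR-126a-3p and mmu-miR-191-5p, then mmu-miR-126a-5p and mmu-miR-21a-5p, then mmu-miR-223-3p in sEVs. No neighbours in this order differed beyond counting error. For none of the 10 pairs did the exact interval of a species' share in the pair's counts exclude 50% in sEVs, including mmu-miR-191-5p with 14 counts against mmu-miR-223-3p with 5 (73.7%, 48.8% to 90.9%). In eEVs mmu-miR-191-5p and mmu-miR-126a-5p, with 10 and 6 counts, did not differ by this measure, and each stood above the 3 species at 0. Between the libraries the ratio could be compared for 7 pairs. It was close to equal for mmu-miR-126a-5p and mmu-miR-191-5p, with an odds ratio of 0.935 that could lie between 0.202 and 4.15. The interval of the odds ratio, unadjusted for the number of pairs, excluded 1 for 3 pairs, each with a species at 0 in eEVs, as were 53.6% of the species with similar counts in sEVs. These were the arms of miR-126a, mmu-miR-126a-3p relative to mmu-miR-191-5p (at most 0.571 in eEVs over sEVs) and mmu-miR-191-5p relative to mmu-miR-21a-5p (at least 1.06). Apart from the arms of miR-126a, no p-value is given for the pairs, since the species were chosen with their counts known.

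The species nearest to each member, by the distance between log2 percentages in the 2 libraries with 0.5 count added, were few-count species as well. mmu-miR-30b-3p, which had 9 counts from sEVs and 4 from eEVs, lay nearest to mmu-miR-126a-5p at a distance of 0.53, and mmu-let-7b-5p followed at 0.96. mmu-let-7c-5p, with 12 and 13 counts, lay nearest to mmu-miR-191-5p at 0.42, and mmu-miR-30b-3p was next at 1.37. Nearest to mmu-miR-126a-3p, at 0.10, was mmu-miR-1291 with 13 and 0 counts, level with mmu-miR-872-3p. The counts of mmu-let-7c-1-3p, 9 and 0, were those of mmu-miR-21a-5p, and mmu-miR-29c-3p had 8 and 0. For mmu-miR-223-3p the nearest were mmu-miR-143-3p with 6 and 0 counts and mmu-let-7e-5p with 4 and 0, level with 9 others. With only 2 libraries these likenesses describe counts and nothing more.

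Other miRNAs of platelets and endothelial cells were taken from lists written from general knowledge, and few of those listed had a count. Broadly expressed species that these cells also hold, such as mmu-miR-23a-3p (45.2% of sEV and 44.1% of eEV counts) and mmu-let-7a-5p (38 and 4 counts), were not on them. Of 16 further species known from platelets, among them miR-24, miR-26a and miR-221, 13 had 0 counts in both libraries. The rest were mmu-miR-107-3p with 2 counts in sEVs, mmu-miR-199a-3p with 1 in sEVs and mmu-miR-92a-3p with 2 in eEVs, and none of these 3 was called, on 1 or 2 counts each and against 23.1% of all 117 species. Of 17 further endothelial species, 14 had 0 counts in both, including miR-10b, miR-31 and miR-100. mmu-miR-10a-5p had 1 count in sEVs. mmu-miR-20a-5p, of the miR-17 to miR-92a cluster, and mmu-miR-125a-5p each had 0 counts in sEVs and 3 in eEVs, which gave an adjusted p of 0.0482 in Fisher's exact test but does not exceed 3 counts in either library, so no fold change is given. All 13 species with these counts were called, and 18.8% of the 117 were called higher. The 13 include both arms of miR-20a, which had identical counts, as did the arms of miR-1188, miR-370, miR-574 and miR-3572. Such hairpins are therefore counted on both arms in the 13 and in the 18.8%, and these calls are not separate observations. The platelet list summed to 0.105% of sEV counts and 0.244% of eEV counts, and these intervals overlap (0.0358% to 0.309% and 0.0669% to 0.885%). The endothelial list summed to 0.0351% (0.00619% to 0.198%) and 0.732% (0.336% to 1.59%), which do not overlap, on 1 and 6 counts.

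Markers of red and white blood cells held more counts, and the intervals of their summed shares did not overlap between the libraries either. Of 5 listed red cell species, mmu-miR-451a gave 27 counts from sEVs and 36 from eEVs (adjusted p = 9.87e-08 in Fisher's exact test), mmu-miR-16-5p had 7 and 0, and the rest, miR-486a and both arms of miR-144, were at 0. Their sum was 1.19% (0.855% to 1.66%) in sEVs and 4.39% (3.19% to 6.02%) in eEVs. The white blood cell list, in which 5 of 6 species were counted and mmu-miR-181a-5p was at 0, summed to 8.03% (7.09% to 9.09%) in sEVs and 3.41% (2.37% to 4.89%) in eEVs, and its species called lower were mmu-miR-142a-5p (adjusted p = 0.0118) and mmu-miR-181b-5p (0.0482) by Fisher's exact test, against 4.27% of all 117 species called lower. Of 3 liver species, mmu-miR-122-5p had 16 counts from sEVs and none from eEVs, miR-192 and miR-194 were at 0, and all 6 species of striated muscle were at 0 in both libraries. mmu-miR-223-3p is shared with white blood cells, and mmu-miR-191-5p with most blood cells. Their part in the shares of the 5 species was not tested.

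**Figure D4:**
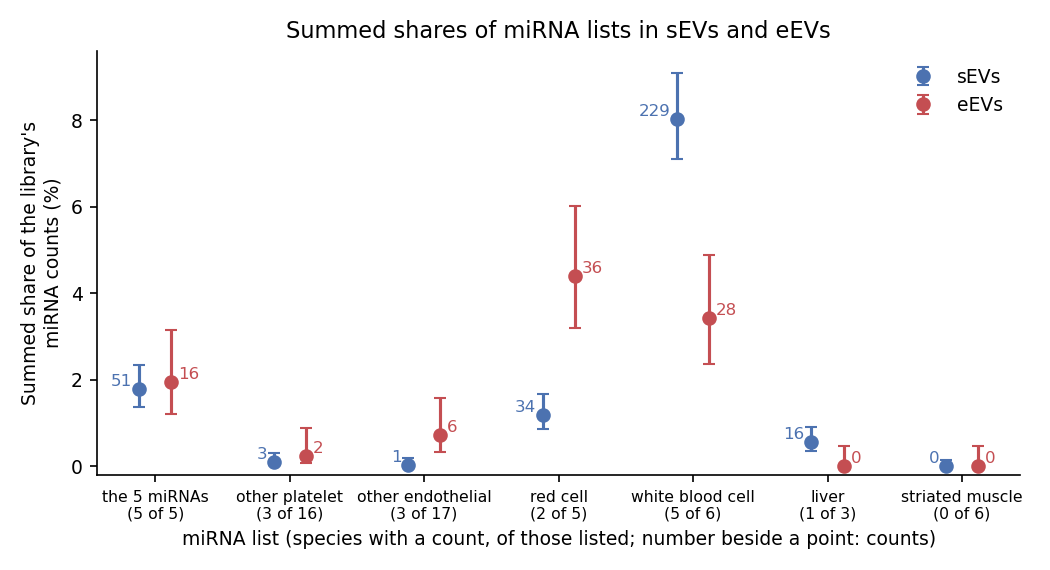
Summed share of the library's miRNA counts (%, y axis) for the 5 miRNAs and 6 lists of marker miRNAs (x axis, with the species counted of those listed) in sEVs (blue) and eEVs (red). Points are shares, bars are 95% Wilson intervals and numbers are counts. The 5 miRNAs lie at 1.79% and 1.95%, and their interval in eEVs overlaps that of the other endothelial list.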

How the data were processed

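Small RNA libraries of plasma EVs, isolated by size exclusion, were made by the authors with the TruSeq Small RNA kit and sequenced on a HiSeq2000. The authors deposited raw counts of reads per mature miRNA, with no normalization, and a second table giving each count as a fraction of the library's total. The fractions differed from count over total by at most 4.85e-10. The aligner, miRNA release, genome build, strand setting and filters were not given in the sources used here. Libraries were grouped by their treatment label, 1 per group, with 2851 counts in sEVs and 820 in eEVs, and all columns were used. Of the names listed, 67 belonged to other organisms and had 0 counts.

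A species was detected at 1 or more counts. Shares, fold changes and two-sided Fisher's exact tests were computed as described, with Benjamini-Hochberg adjustment over all detected species or all testable hairpins. edgeR's quasi-likelihood fit needs replicates and was not possible. A count of 3 or fewer was set at 3 in a fold change, and none was given where both counts were 3 or fewer or where this turned the direction. Alternatives were the fractions, TMM factors, DESeq2 size factors, totals without the most abundant species or with identical arms once, scaling to mmu-miR-191-5p, 0.5 counts or 1 count added, adjustment over species with 5 or more counts, and the exact test of edgeR at 3 assumed values of biological variation. The text names the 5 species, their other arms and near copies, marker lists written from general knowledge, and the 2 nearest species of each. The species, lists and tests were chosen with earlier results of these data known. The functions were tested on simulated data. Sequences came from RefSeq on GRCm38.p6 and annotation from GENCODE M21. Tests ran in scipy 1.17.1 with pandas 2.3.3 and numpy 2.4.6 (Python 3.11.15), scaling factors came from DESeq2 1.42.0 and edgeR 4.0.16 under R 4.3.3, and plots were drawn with matplotlib 3.10.9.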

Additional observations from a re-analysis of the deposited data

How the results depend on the processing

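The count of called species among the 5 was 0 in 8 of 9 alternatives and 1 with DESeq2's size factors, which called 23.1% of all species (mmu-miR-191-5p, adjusted p = 0.0216; over its alternatives 0.0216 to 0.635). The count past 2-fold was 2 with every other scaling, but 5 with 0.5 counts and 4 with 1 count added to each species, since these values replace the 0 counts in eEVs. Without the most abundant species, mmu-miR-23a-3p, in the totals, the summed share was 3.27% in sEVs and 3.49% in eEVs, by construction of smaller totals, and their ratio was 1.07 in place of 1.09. Relative to mmu-miR-191-5p the log2 fold change of mmu-miR-126a-5p was -0.0995, a change of sign whose odds ratio had an interval from 0.202 to 4.15. The upper bounds for mmu-miR-126a-3p and mmu-miR-21a-5p fell to 0.571 and 0.94, and the 2 species past 2-fold were these last, both lower in eEVs. This reference is itself in the set and had its highest fold change, so the other species are lower relative to it by construction. These bounds rest on the same counts as the pairs given above. Of 53 values of single species under these alternatives, 49 kept their direction and their side of the threshold. The difference in the 5p share of miR-126a was 53.3 percentage points with 0.5 counts added, and its adjusted p was 0.202 over the 12 hairpins with 10 or more counts, 0.219 over the 13 without identical arms and, chosen after seeing the data, 0.118 over the 7 with both arms counted and unequal.

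At this depth, 3 of the 5 species were at 0 among the 820 counts of eEVs and only 1 of these had a share in sEVs above that of 3 counts in eEVs. With 1 library per group, no variation among mice or preparations was measured. With edgeR's exact test and assumed coefficients of biological variation of 0.1, 0.2 and 0.4, the adjusted p of the 5 species lay between 0.254 and 0.717. No paired analysis was possible because each group has 1 library.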
